A study of Danio rerio with 10 samples.

Results

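The genes described here encode the peptide hormones of the pancreatic islet and the proteins that cut them into their active forms. They were taken by name: every row of the deposited gene tables called ins, gcga, gcgb, sst1.1, sst2, pdx1, scg5, pcsk1 or pcsk2. These 9 names matched 10 of 32265 genes, because 2 genes carry the name scg5, and all 10 are annotated as protein coding.

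All fish were of the AB strain and carried a human TPM3 transgene driven by the muscle promoter MLC2, that of a myosin light chain, so no group was free of human tropomyosin 3. The transgene was TPM3(WT), TPM3(E151A) or TPM3(E151G), the last 2 being mutants at the same residue, and a green heart marker came with it. Adult muscle was sampled at 6 months, with 2 libraries for each of the 3 genotypes, and embryos, labelled as whole embryos of 2 days, gave 1 library for each of 4 conditions, the same genotypes and TPM3(E151G) with L-carnitine. The study made several independent lines per construct, and no source used here names the line that was sequenced; its text also speaks of muscle taken from embryos, where the labels give whole embryos, and the labels state neither dose nor duration of L-carnitine.

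Levels are FPKM, the fragments of a gene divided by its transcript length and by the size of the library, so that genes of different length can be set beside each other. The files give 1 combined FPKM for each adult genotype and 1 for each embryo condition. No value therefore has a replicate check, no error or p-value is given for any difference below, and the libraries' depth is unknown. Differences are log2 ratios of FPKM + 1, which understate the change of genes near or below an FPKM of 1. A gene was compared where either condition reached an FPKM of 1. A gene below 1 in the other condition is thus compared only through the condition where it is higher. It is called higher or lower at a difference of 2-fold or more on the scale of FPKM + 1, a log2 ratio of 1. Adult and embryo values come from tables made separately, and no fold is given between them.

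In vertebrates the islet holds several endocrine cell types, each known by its hormone: beta cells make insulin, alpha cells glucagon and delta cells somatostatin. Each hormone is made as a longer precursor that is packed into secretory granules and cut there by prohormone convertases. Zebrafish keep duplicated copies of several of these genes, and their first islet forms early in embryonic life. Somatostatin, the convertases and 7B2 are also made by neurons and other endocrine cells. Skeletal muscle is a target of insulin rather than a source of islet hormones.

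Muscle genes were abundant in every condition, which alone does not tell whole embryos from muscle of embryos. A neuron list summed to an FPKM of 1752 to 1987 in embryos and 88 to 192 in adults. A liver list summed to 1206 to 3916 in embryos and 370 to 1381 in adults. The embryo columns thus held tissue other than muscle. The adult columns also held markers of ovary and testis, exocrine pancreas and intestine, described below. The 22 rows of a muscle list summed to an FPKM of 49195 to 83873 in adults and 55609 to 80630 in embryos, and the summed FPKM of the islet hormones was 4.71 to 11.8 in adults and 16.4 to 33.2 in embryos. The islet genes are thus minor transcripts of mixed tissue here, and fewer islet cells cannot be told apart from less hormone mRNA per cell. In embryos the islet's own factors rfx6 and pax4 stayed at or below an FPKM of 0.118, while neurod1 and isl1, which neurons also use, reached 194 and 76.1. The sum of all FPKM in a column, in units of 1000 FPKM, was 712 and 759 in adult TPM3(WT) and TPM3(E151A) and 1404 in adult TPM3(E151G). In embryos it was 575 for TPM3(WT), 658 for TPM3(E151A), 740 for untreated and 606 for treated TPM3(E151G). Setting these sums equal moved the median gene by -0.77 in adult TPM3(E151G) against TPM3(WT) and by -0.71 against TPM3(E151A), by -0.16 and -0.30 in TPM3(E151A) and TPM3(E151G) embryos against TPM3(WT), and by 0.24 with L-carnitine against TPM3(E151G) alone. Scaling by the median of ratios moved it by 0.27 and 0.13 in adult TPM3(E151A) and TPM3(E151G) against TPM3(WT), by -0.13 between the adult mutants, and by less than 0.1 in embryos. Some results that turn on these shifts are named where they occur, and the closing section gives the counts that changed.

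In TPM3(E151A) embryos 3 hormone genes were more than 2-fold higher than in TPM3(WT) embryos: insulin, glucagon b and somatostatin 2. Of the 10 islet genes, 9 could be compared, 4 were called higher and none lower, where 0.990% of 17577 genes were called higher and 0.996% lower. The fourth called gene was the chromosome 19 copy of scg5. The median log2 ratio of the 9 genes was 0.60, against 0.02 over all genes compared. In TPM3(WT) gcga, gcgb, sst2 and the chromosome 19 scg5 gene lay below an FPKM of 1, at 0.711, 0.459, 0.935 and 0.288. They were compared only through TPM3(E151A), where they were higher, which favours a higher count and median. The other ratios were 1.44 for ins, 0.03 for sst1.1, -0.06 for pcsk2, -0.49 for pcsk1 and -0.56 for the chromosome 20 scg5 gene. The 4 calls held when column sums were set equal or scaled by median of ratios.

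The insulin gene ins (ENSDARG00000035350, GRCz11 chr5:37254531-37257543) encodes the precursor of the beta cell hormone that lowers blood glucose. Its FPKM in embryos was 4.77 with TPM3(WT), 14.6 with TPM3(E151A), 6.45 with untreated TPM3(E151G) and 4.35 after L-carnitine. The TPM3(E151A) library stood alone, since the other 3 lay close together. Its log2 ratio to TPM3(WT) was 1.44, larger than that of 99.7% of the genes compared, and it was 0.37 in TPM3(E151G). With L-carnitine the level lay near that of TPM3(WT), at a log2 ratio of -0.11. In adult muscle ins had an FPKM of 1.73 with TPM3(WT), 3.52 with TPM3(E151A) and 1.42 with TPM3(E151G). Both stages thus had the highest ins in TPM3(E151A), but the adult ratio of 0.73 was under 2-fold. The ratio between the adult mutants, TPM3(E151G) to TPM3(E151A), was -0.90, and it passed 2-fold, at -1.5, when column sums were set equal.

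**Figure D1:**
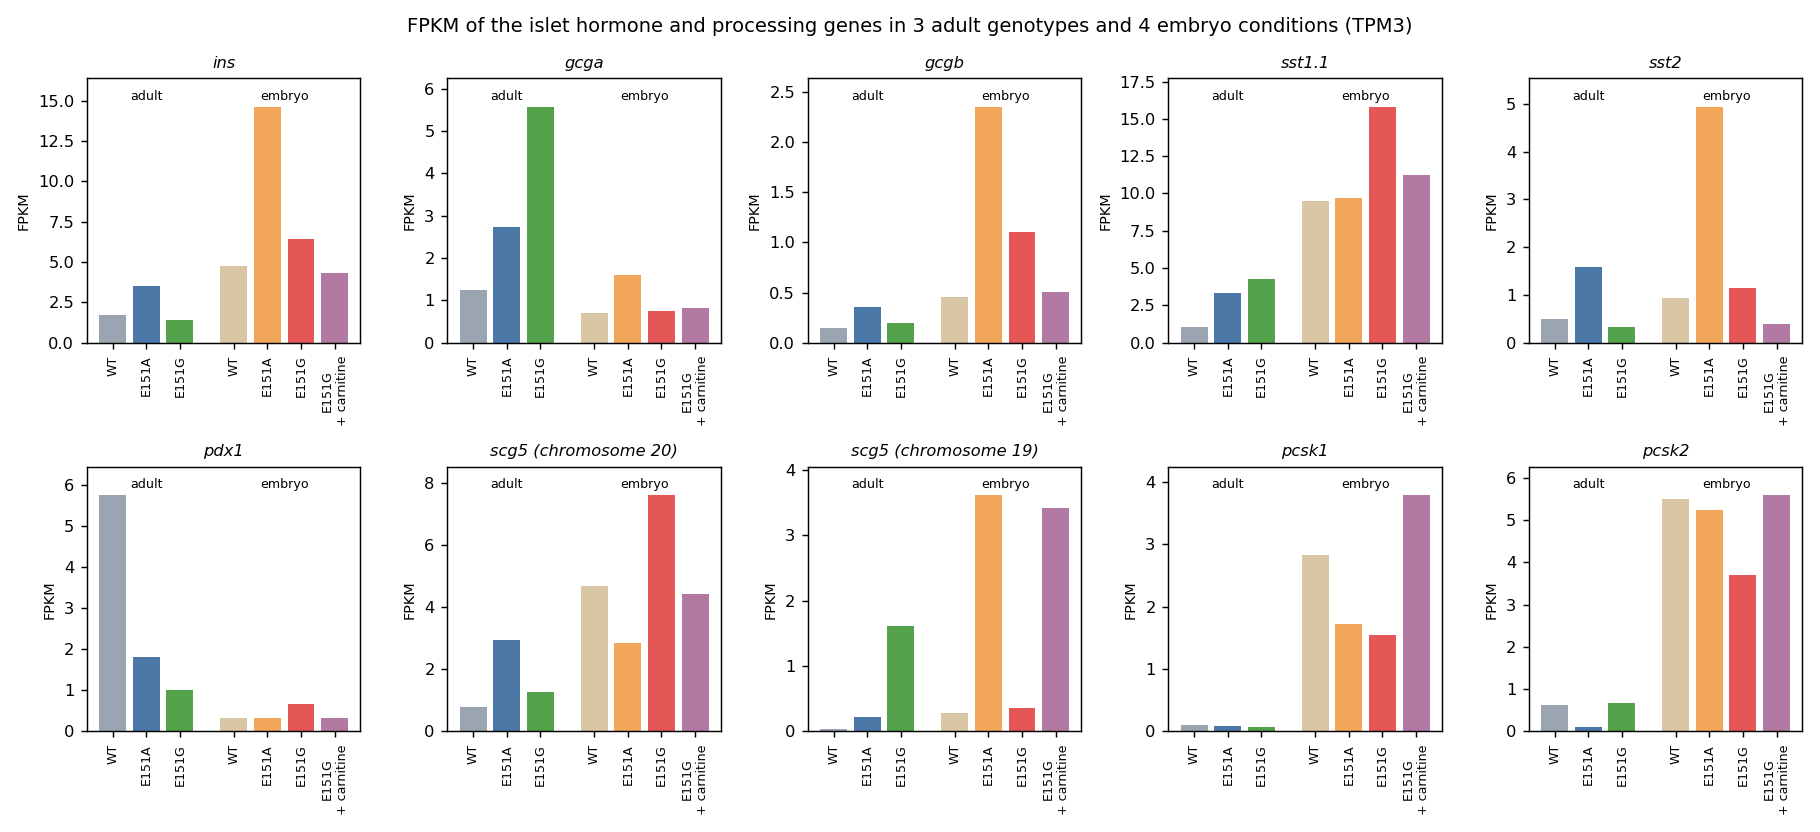
FPKM (y axis, linear, each panel with its own scale) of the 10 islet genes in 3 adult genotypes and 4 embryo conditions (x axis); each bar is 1 deposited value with no error. In embryos ins, gcga, gcgb and sst2 were highest in TPM3(E151A), where ins reached 14.6, and pdx1 was highest in adult TPM3(WT) at 5.75.

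Glucagon, the alpha cell hormone that opposes insulin in the liver, has 2 precursor genes in zebrafish. In embryos gcgb (ENSDARG00000040907, chr9:51616719-51745410) had an FPKM of 0.459 with TPM3(WT), 2.35 with TPM3(E151A), 1.1 with untreated TPM3(E151G) and 0.506 after L-carnitine. It was again highest in TPM3(E151A), with a log2 ratio of 1.2 to TPM3(WT), above 99.5% of genes. The other copy, gcga (ENSDARG00000079296, chr22:11566749-11596336), had an FPKM of 0.711, 1.599, 0.756 and 0.828 in the same order. It too was highest in TPM3(E151A), by 2.25-fold in FPKM itself but only 0.60 on the log2 scale of FPKM + 1, which is short of a call. The deposited locus of gcgb also holds ifih1, fap and an antisense gene, and that of gcga holds pcyt2 and an antisense gene. An antisense gene also lies at the locus of sst2. Whether the values of these hormone genes take in reads of their neighbours was not tested.

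Somatostatin, which restrains the release of the other islet hormones, differed between sst1.1 and sst2, which are 2 of several somatostatin genes in the tables. The gene sst2 (ENSDARG00000014190, chr2:5814470-5817294) had an FPKM of 0.935 in TPM3(WT) embryos, 4.94 in those with TPM3(E151A), 1.14 in untreated TPM3(E151G) and 0.382 in the treated embryos. At 1.62 it had the largest log2 ratio of any hormone gene in TPM3(E151A) embryos against TPM3(WT), above 99.8% of genes. By contrast sst1.1 (ENSDARG00000040799, chr15:36299016-36300882) had an FPKM of 9.49 in TPM3(WT) and 9.70 in TPM3(E151A), a log2 ratio of 0.03. Among the 5 hormone genes described here it was the most abundant in all embryo conditions but TPM3(E151A), where ins exceeded it. Its level was 15.8 in TPM3(E151G), the highest of the 4, and 11.2 with L-carnitine, with ratios of 0.68 to TPM3(WT) and -0.46 with L-carnitine against without. The first of these was 0.35 when column sums were set equal.

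The make-up of the hormone transcripts therefore differed between embryo libraries. As a share of the summed FPKM of the 5 hormone genes, insulin made up 29.2% with TPM3(WT), 44.0% with TPM3(E151A), 25.5% with untreated TPM3(E151G) and 25.1% after L-carnitine. The share of sst1.1 was 58.0%, 29.2%, 62.6% and 64.9% in that order, and that of sst2 was 5.71%, 14.9%, 4.52% and 2.21%. TPM3(E151A) embryos thus had less of their hormone mRNA from sst1.1 and more from ins and sst2 than any other embryo library. These shares do not depend on how the columns are scaled.

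The homeobox factor pdx1 (ENSDARG00000002779, chr24:21539014-21541532), needed for the pancreas to form and for beta cells to transcribe insulin, did not follow insulin in embryos. Its FPKM was 0.321 with TPM3(WT), 0.322 with TPM3(E151A), 0.669 with untreated TPM3(E151G) and 0.333 after L-carnitine, too low in each to be compared. It was thus highest in TPM3(E151G), not in TPM3(E151A).

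Lists of genes that accompany the hormones in the islet did not move as a body in TPM3(E151A) embryos. Neurons also use some of these genes, such as neurod1 and isl1, so ratios from mixed tissue cannot tell what islet cells did. Among islet transcription factors 26 of 33 rows could be compared. Of these 18 lay above 0 and 8 below, with a median of 0.25, against 0.02 over all genes compared. In this list 1 was called higher and none lower, where 0.990% of all genes were called higher and 0.996% lower. The called gene was ascl1b (ENSDARG00000101628), a proneural factor that starts endocrine differentiation in the zebrafish pancreas and also acts in the brain. Its FPKM in embryos was 18.5 with TPM3(WT), 53.3 with TPM3(E151A), 33.1 with untreated TPM3(E151G) and 23.3 after L-carnitine, a log2 ratio of 1.48 in TPM3(E151A) against TPM3(WT). The endocrine zinc finger gene insm1a, named after its values were seen, went from 59.14 to 119. Its log2 ratio of 0.996 was just short of a call. By contrast neurod1, also named after its values were seen, went from 168 to 106. Its ratio of -0.65 was the lowest of the list. Of 12 other islet and gut peptide genes, 7 could be compared in TPM3(E151A) embryos, none was called, and their median was 0.14. Of 27 genes of prohormone processing and the secretory granule, 24 could be compared, none was called, and 18 lay below 0, with a median of -0.23.

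Marker lists of other cell types were set beside these hormones. In TPM3(E151A) embryos against TPM3(WT) the exocrine pancreas list had 4 of 18 rows compared and none called, with a median of 0.25 and summed FPKM of 7.69 in TPM3(WT) and 8.89 in TPM3(E151A). Its digestive enzyme genes were thus at very low levels in both. The liver list had 18 of 19 rows compared, none called and a median of 0.17, and the neuron list had all 15 rows compared, none called and a median of -0.16. The summed FPKM of the neuron list was 1789 in TPM3(WT) and 1752 in TPM3(E151A) embryos. Of 32 pituitary and hypothalamic hormone genes, 19 could be compared and none was called, with a median of -0.10.

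**Figure D2:**
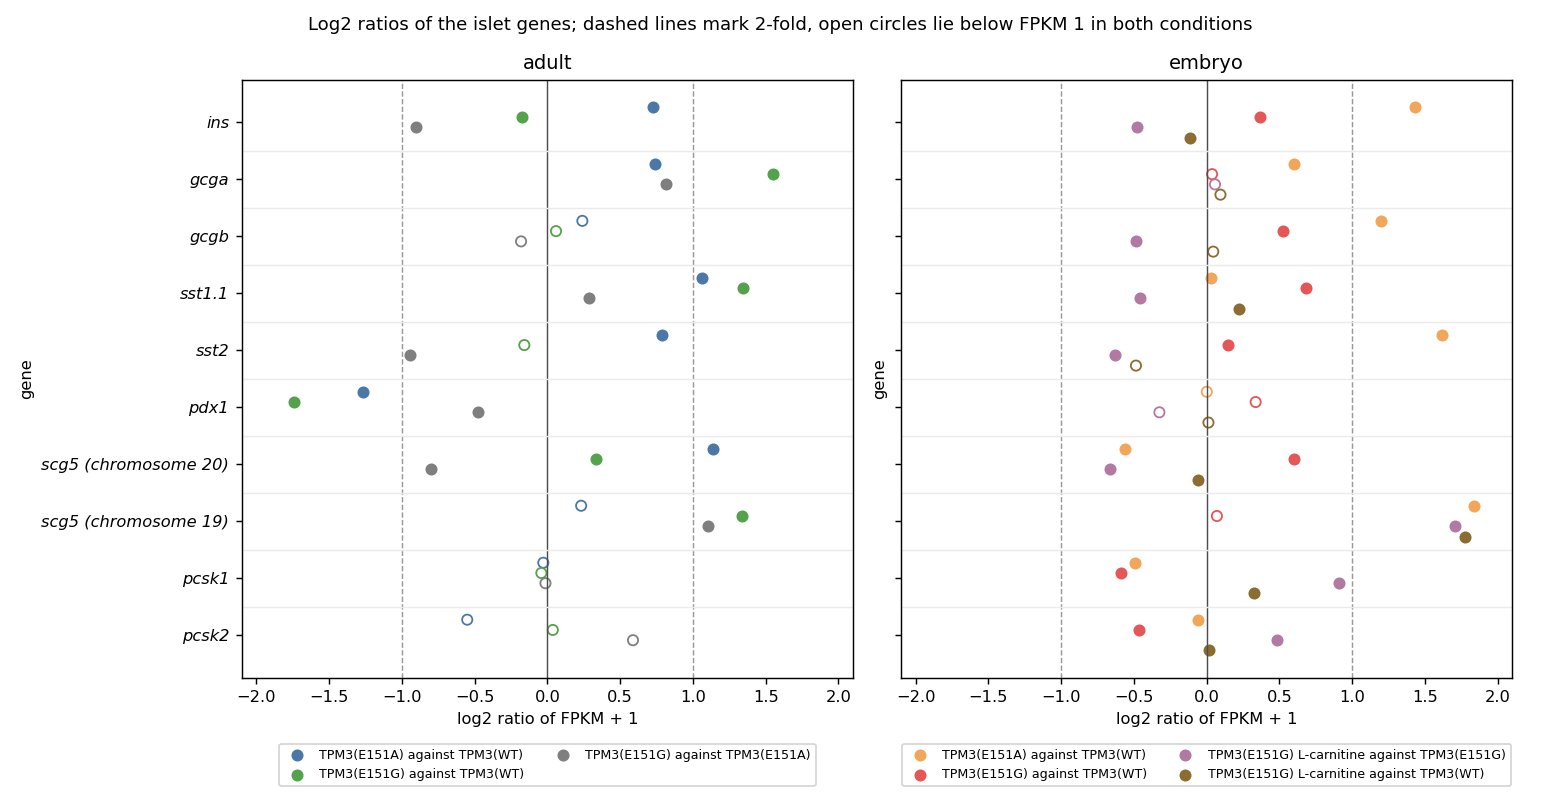
Log2 ratios of FPKM + 1 (x axis) of the 10 islet genes (y axis) in 3 adult and 4 embryo comparisons, 1 point each; filled points were compared, open points lie below an FPKM of 1 in both conditions, and dashed lines mark 2-fold. In embryos the points beyond 2-fold are ins, gcgb, sst2 and the chromosome 19 scg5 row for TPM3(E151A), and the chromosome 19 scg5 row for both L-carnitine comparisons.

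TPM3(E151G) embryos showed no hormone gene past 2-fold on the scale of FPKM + 1. In FPKM itself gcgb was 2.40-fold higher than in TPM3(WT). Of the 7 islet genes compared with TPM3(WT), none was called in either direction, where 0.637% of 17581 genes were called higher and 1.79% lower. Their median log2 ratio was 0.37, against 0.04 for all genes, and this library had the highest FPKM sum of the embryo columns. In TPM3(WT) gcgb and sst2 lay below an FPKM of 1, at 0.459 and 0.935. They were compared only through TPM3(E151G), where they were higher, which favours a higher median. In the same comparison all 21 muscle rows and all 18 liver rows compared lay above 0, with medians of 0.47 and 0.45. The processing and granule list and the hormone receptor and insulin signalling list had medians of -0.04 and -0.23. The comparisons of the 2 mutants with TPM3(WT) share the TPM3(WT) library. A difference between the mutants in these ratios has no test, as each is 1 library.

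The convertases were the members that stood lower in TPM3(E151G) embryos. Prohormone convertase 1, encoded by pcsk1 (ENSDARG00000002600, chr21:11592201-11629715), makes the early cuts in many prohormones, proinsulin among them. Its FPKM was 2.82 with TPM3(WT), 1.72 with TPM3(E151A), 1.55 with untreated TPM3(E151G) and 3.78 after L-carnitine. Both mutants thus lay below TPM3(WT), by log2 ratios of -0.49 and -0.59, and the treated library lay above all others. Prohormone convertase 2, encoded by pcsk2 (ENSDARG00000019451, chr13:781659-847559), releases glucagon in mammalian alpha cells and processes many neuropeptides. Its FPKM was 5.51 with TPM3(WT), 5.25 with TPM3(E151A), 3.71 with untreated TPM3(E151G) and 5.59 after L-carnitine, so that the TPM3(E151G) library without treatment was the low one. None of these differences from TPM3(WT) reached 2-fold.

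With L-carnitine, on which long-chain fatty acids cross into mitochondria, the hormone genes compared in TPM3(E151G) embryos stood lower than without it. The convertases stood higher. Of 8 islet genes compared, 1 was called higher and none lower, where 2.55% of 17585 genes were called higher and 0.199% lower. The ratios of the 4 hormone genes compared, ins, gcgb, sst1.1 and sst2, were all negative, between -0.63 for sst2 and -0.46 for sst1.1. With L-carnitine gcgb and sst2 lay below an FPKM of 1, at 0.506 and 0.382. They were compared only through the untreated library, where they were higher, so the FPKM minimum set their sign. The remaining hormone gene, gcga, was too low to be compared, at 0.756 without and 0.828 with L-carnitine. In FPKM itself sst2 was 2.98-fold and gcgb 2.18-fold lower. A like shift was not confined to islet hormones. All 21 muscle rows compared lay below 0, with a median of -0.545. Of 19 pituitary and hypothalamic hormone genes 17 lay below 0 and 2 above, with a median of -0.27. Setting column sums equal shifts every ratio of this comparison upwards, by 0.24 for the median gene. That moves these negative hormone ratios towards 0, so the scaling could not make a lower call, and none of the hormone genes was called. The log2 ratio of pcsk1 was 0.91 and that of pcsk2 was 0.48, larger than those of 96.6% and 87.3% of the genes compared. Higher levels were not confined to the convertases either. Of 22 hormone receptor and insulin signalling genes 18 lay above 0 and 4 below, with a median of 0.36. Of 10 genes of beta cell glucose sensing and exocytosis 7 lay above 0 and 3 below, with a median of 0.52. With column sums set equal pcsk1 passed 2-fold, at 1.11. Against TPM3(WT), the treated embryos had 6 islet genes compared, 1 called higher and none lower, where 1.97% of 17731 genes were called higher and 0.384% lower. There the ratio of pcsk1 was 0.32 and that of pcsk2 was 0.02. The comparisons with and against L-carnitine share libraries, so a low value in the TPM3(E151G) library enters more than 1 of them.

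Genes of the liver and the exocrine pancreas moved differently from the islet hormones under L-carnitine. Of 19 liver rows compared with untreated TPM3(E151G), 17 were called higher and none lower, with a median of 1.70. Of all genes in this comparison 2.55% were called higher and 0.199% lower. In the exocrine list 6 of 10 rows compared were called higher and none lower, with a median of 1.04, and its summed FPKM was 8.96 without and 25.2 with L-carnitine. Only 1 row of this list reached an FPKM of 1 without L-carnitine, against 10 with it. Most were thus compared only through the treated library, where they were higher, which favours higher calls and a higher median. The trypsin gene prss59.1, for example, had an FPKM of 0.713 without and 4.63 with treatment. Within the beta cell list of glucose sensing and exocytosis 2 of 10 genes compared were called higher. These were the glucose transporter slc2a2, which the liver also expresses and which went from 1.93 to 5.12, and the calcium channel cacna1da, which went from 0.624 to 2.64 and had stood at 3.65 in TPM3(WT). Among hormone receptors and insulin signalling genes 1 of 22 was called higher, igfbp1a, a liver-made binding protein of insulin-like growth factors, which went from 13.4 to 30.2. With 22 genes compared, no difference from the share of all genes is read from this 1 call. None of 25 processing and granule genes was called, with a median of 0.16, and none of 26 islet transcription factors, with a median of -0.09.

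The 2 genes named scg5 encode 7B2, the chaperone that keeps convertase 2 soluble and inactive until it reaches the granule. One lies at chr20:29568926-29572057 (ENSDARG00000032126) and the other at chr19:47963034-47966205 (ENSDARG00000077045). In embryos the chromosome 20 gene had an FPKM of 4.67 with TPM3(WT), 2.85 with TPM3(E151A), 7.60 with untreated TPM3(E151G) and 4.43 after L-carnitine. The chromosome 19 gene had an FPKM of 0.288, 3.61, 0.353 and 3.42 in the same order. The latter was near 0 in TPM3(WT) and TPM3(E151G) and above 3 in the other 2 libraries. Its log2 ratios were 1.84 in TPM3(E151A) against TPM3(WT), 1.71 with L-carnitine against without, and 1.78 with L-carnitine against TPM3(WT). The chromosome 20 gene had ratios of -0.56, -0.66 and -0.06 in those comparisons.

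**Figure D3:**
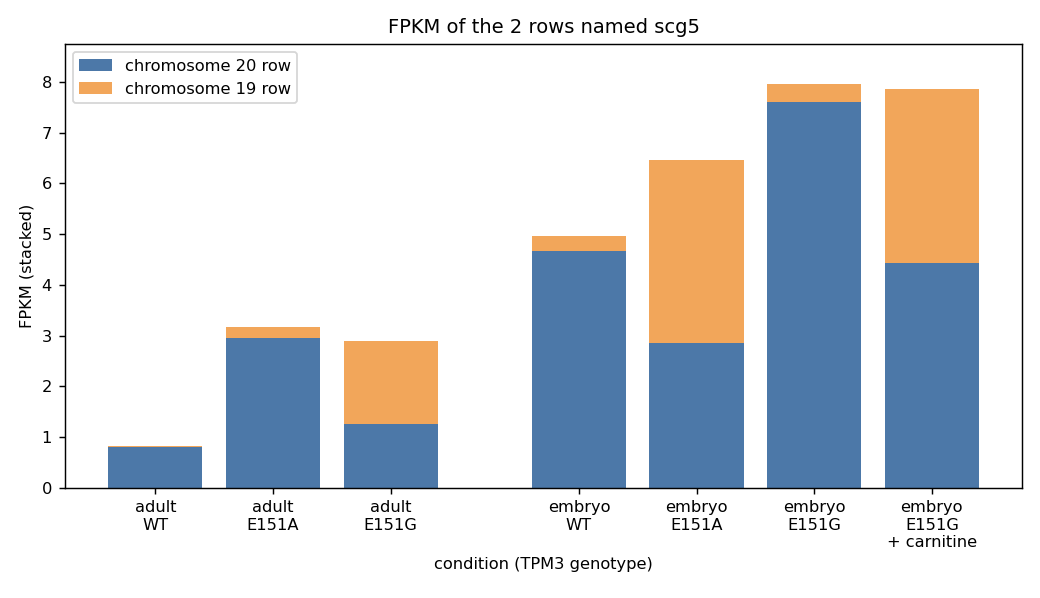
FPKM of the chromosome 20 and the chromosome 19 gene named scg5, stacked (y axis, from 0), in the 3 adult genotypes and 4 embryo conditions (x axis); 1 deposited value per segment. The chromosome 19 gene gives 55.9% of the sum in TPM3(E151A) embryos and 43.5% with L-carnitine, against 5.80% in TPM3(WT) embryos.

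In embryos the sum of the scg5 genes varied less than either gene alone. In adult muscle it was not steady, at an FPKM of 0.832 with TPM3(WT), 3.17 with TPM3(E151A) and 2.88 with TPM3(E151G). The summed FPKM was 4.96 in TPM3(WT) embryos, 6.46 in those with TPM3(E151A), 7.95 in untreated TPM3(E151G) and 7.85 in the treated embryos, and the chromosome 19 gene supplied 5.80%, 55.9%, 4.44% and 43.5% of it. When the rows were summed, a choice made after the data were seen, no islet gene was called in either L-carnitine comparison, while ins, gcgb and sst2 remained called in TPM3(E151A) embryos. The genes share a name, and the submitters' processing notes name featureCounts 1.6.3 without its settings, and no source used here says how reads were divided between similar copies, so the value of each copy alone is uncertain.

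In adult muscle the hormone genes were present at low levels, and 2 of them were called higher in 1 or both mutants. Of 6 islet genes compared in TPM3(E151A) against TPM3(WT), 2 were called higher and 1 lower, where 9.90% of 16865 genes were called higher and 19.2% lower. Of 6 compared in TPM3(E151G) against TPM3(WT), 3 were called higher and 1 lower, where 17.4% of 16572 genes were called higher and 25.5% lower. Between the mutants, TPM3(E151G) against TPM3(E151A), 1 of 7 was called higher and none lower, where 10.1% of 16715 genes were called higher and 9.88% lower. Large shares of all genes passed 2-fold in adults, so these counts of 1 to 3 islet genes are given as a description.

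The gene sst1.1 had an FPKM of 1.09 with TPM3(WT), 3.36 with TPM3(E151A) and 4.30 with TPM3(E151G). It was the one hormone gene called in both mutants, with log2 ratios of 1.06 and 1.35 to TPM3(WT). The glucagon gene gcga had an FPKM of 1.24, 2.74 and 5.58 in the same order, and its ratios were 0.74 and 1.55. In TPM3(E151G) both ratios came under 2-fold when column sums were set equal, at 0.69 for sst1.1 and 0.86 for gcga. The somatostatin gene sst2 went from 0.495 with TPM3(WT) to 1.58 with TPM3(E151A) and 0.339 with TPM3(E151G). Its ratio in TPM3(E151A) was 0.79, but it lay below an FPKM of 1 in TPM3(WT) and was compared only through TPM3(E151A), where it was higher. The other hormone genes compared there, ins, gcga and sst1.1, also stood higher than in TPM3(WT). The other glucagon gene, gcgb, stayed at or below an FPKM of 0.355 in all 3 genotypes. Adult TPM3(E151G) muscle thus held more gcga than ins, with an ins to gcga ratio of 0.254, while that ratio was 1.39 in TPM3(WT) and 1.28 in TPM3(E151A).

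The adult order of pdx1 was the reverse. Its FPKM was 5.75 with TPM3(WT), 1.80 with TPM3(E151A) and 1.02 with TPM3(E151G), which made it the most abundant islet gene of adult TPM3(WT) muscle. It was called lower in both mutants, with log2 ratios of -1.27 and -1.74. A factor of pancreas, duodenum and beta cells was thus lower where sst1.1 and gcga were higher. The chromosome 20 scg5 gene had an adult FPKM of 0.796 with TPM3(WT), 2.95 with TPM3(E151A) and 1.27 with TPM3(E151G), and was called higher in TPM3(E151A) at 1.14. The chromosome 19 gene had 0.0365, 0.217 and 1.62, and was called higher in TPM3(E151G), at 1.34 against TPM3(WT) and 1.11 against TPM3(E151A). The latter call was lost when column sums were set equal. Both scg5 genes lay below an FPKM of 1 in TPM3(WT), so each was compared with it only through a mutant where it was higher. The convertases were scarcely detected in adult muscle, with pcsk1 at or below an FPKM of 0.105 and pcsk2 at or below 0.673.

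Markers of other abdominal tissues differed between the adult genotypes as well. The 18 rows of the exocrine pancreas list summed to an FPKM of 399 with TPM3(WT), 1198 with TPM3(E151A) and 2117 with TPM3(E151G). Of these rows 16 were called higher and none lower in each mutant against TPM3(WT), with medians of 1.6 and 2.36. The chymotrypsinogen gene ctrb1, the most abundant of them, had an FPKM of 88.7, 199 and 446. No row of this list was at 0 in any adult genotype, and all exocrine sums exceeded the hormone sums many times over. The liver list summed to 370, 631 and 1381 in the same order, of which the single gene rbp4 gave 355, 559 and 1305. Against TPM3(WT) 6 of 13 liver rows compared were called higher in TPM3(E151A) and 8 of 10 in TPM3(E151G), none lower, with medians of 0.97 and 1.66. Between the mutants, TPM3(E151G) against TPM3(E151A), the liver median was -0.07. The ovary and testis list did not move as one. In TPM3(E151A) 5 of its 12 rows were called higher and 5 lower, the higher ones including the testis genes dmrt1, from 0.775 to 27.1, and amh, from 0.0534 to 10.97, and the lower ones including the egg coat gene zp3b, from 754 to 158. In TPM3(E151G) none of 10 was called higher and 8 were called lower. The intestine list summed to 521, 214 and 63.5 in the 3 genotypes, a fall that was mostly that of 1 gene. This was the ileal bile acid binding protein fabp6, the most abundant in TPM3(WT), which went from 475 to 188 and 17.5. Of 7 intestine rows compared in TPM3(E151A) against TPM3(WT), 1 was called higher and 3 lower, beside 9.90% and 19.2% of all genes. In TPM3(E151G) none of 6 was higher and 2 were lower, beside 17.4% and 25.5%. Another gene of this list, anpepb, went from 13.2 to 2.46 and 10.4. The part of these tissues in the adult values of sst1.1, gcga and pdx1 was not tested.

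**Figure D4:**
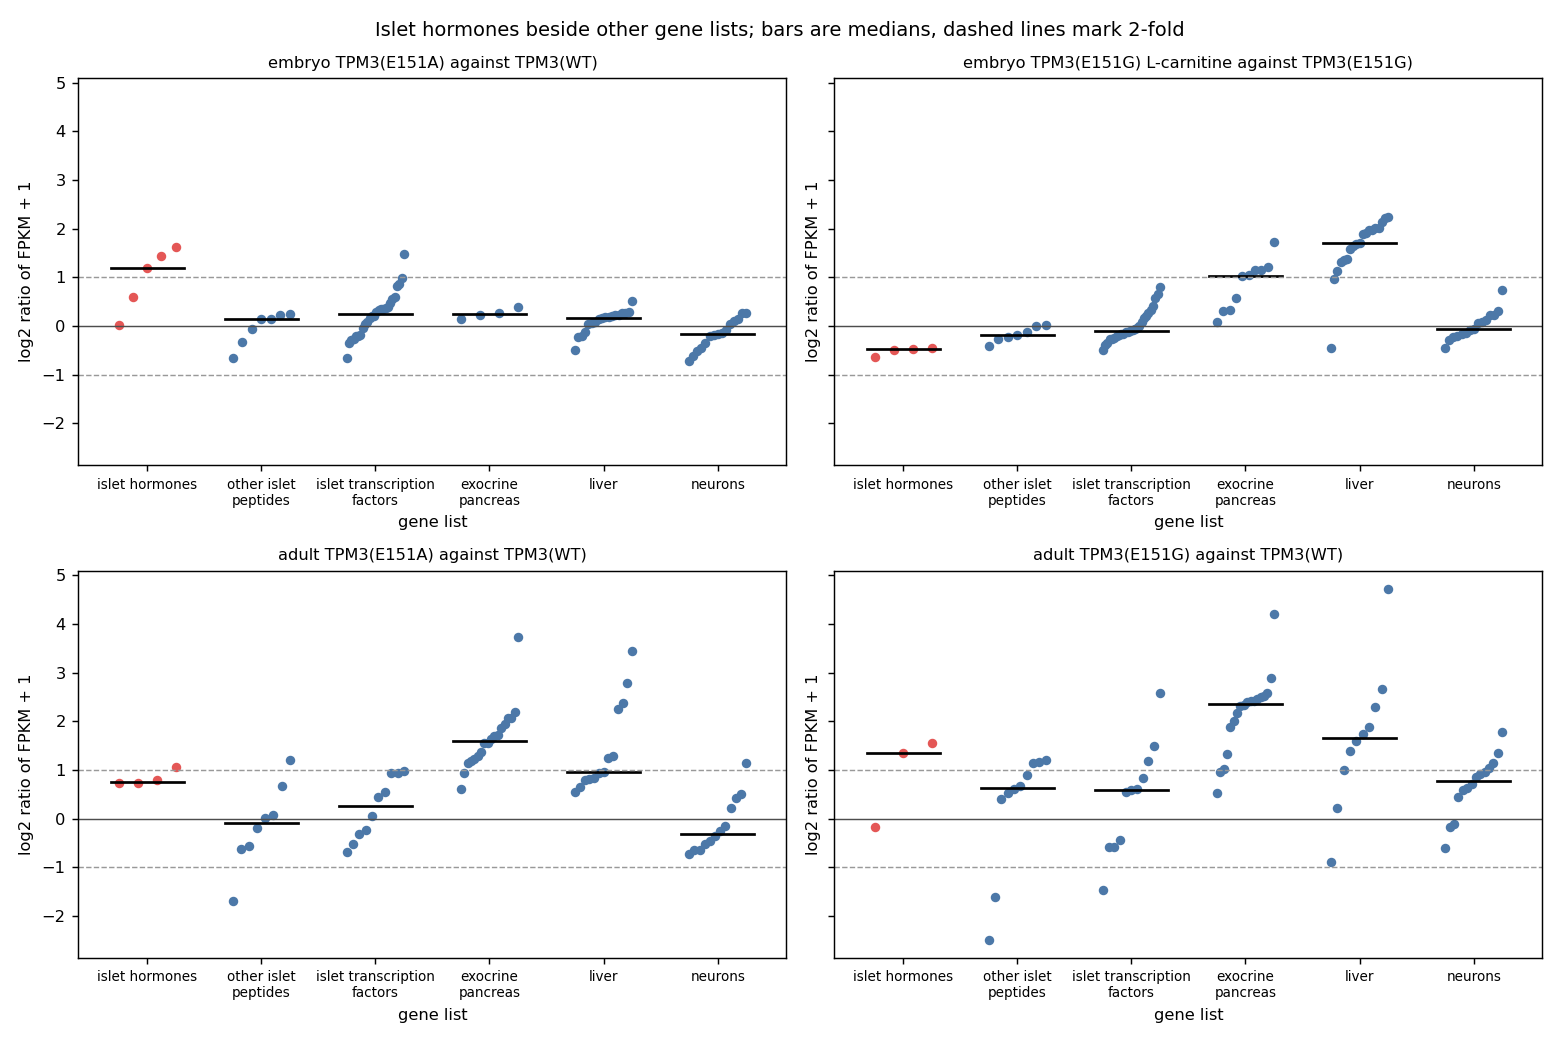
Log2 ratios of FPKM + 1 (y axis) of the islet hormone genes (red) and of 5 gene lists (blue) in 2 embryo and 2 adult comparisons (panels), 1 point per gene compared; black bars are medians and dashed lines mark 2-fold. In TPM3(E151A) embryos ins, gcga, gcgb and sst2 stand above the exocrine and liver medians of 0.25 and 0.17 and sst1.1, at 0.03, below them. With L-carnitine the exocrine and liver medians are 1.04 and 1.70 and the hormones compared lie below 0. Genes below an FPKM of 1 in the other condition were compared only through the condition where they were higher.

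In adult muscle, of 12 other islet and gut peptide genes, 10 were compared in TPM3(E151G) against TPM3(WT), 3 were called higher and 2 lower, beside 17.4% and 25.5% of all genes. Of the 10, 8 lay above 0, with a median of 0.64, which is again smaller than the shift of -0.77. The nucleobindin gene nucb2a, source of nesfatin, went from 23.4 to 54.9, and sst3, a further somatostatin gene, from 0.451 to 2.26. Those lower were nucb2b, from 14.5 to 1.76, and vipb, a vasoactive intestinal peptide gene, from 11.6 to 3.15. The second insulin gene, insb, had an FPKM of 3.45 with TPM3(WT), 2.04 with TPM3(E151A) and 5.78 with TPM3(E151G), an order unlike that of ins. In TPM3(E151A) 8 of these peptide genes were compared, with 1 called higher and 1 lower, beside 9.90% and 19.2% of all genes.

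Processing and granule genes of adult muscle were called in both directions. In TPM3(E151A) 1 of 18 compared was called higher and 3 lower, and in TPM3(E151G) 2 of 18 were higher and 4 lower, against TPM3(WT). Of all genes in the same comparisons 9.90% were called higher and 19.2% lower for TPM3(E151A), and 17.4% and 25.5% for TPM3(E151G). With 18 genes compared, no difference from these shares is read from the counts. The broadly expressed convertase pcsk6 went from an FPKM of 7.05 with TPM3(WT) to 1.196 with TPM3(E151A) and 0.454 with TPM3(E151G), and the sulfhydryl oxidase qsox1 from 13.6 to 4.13 and 2.76. For islet transcription factors, none of 10 was called in TPM3(E151A), and 3 of 11 were higher and 1 lower in TPM3(E151G). The leading one was mafba, also a macrophage factor, at 10.5 with TPM3(WT), 21.7 with TPM3(E151A) and 67.6 with TPM3(E151G).

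On the receiving side, 6 of 18 hormone receptor and insulin signalling genes compared were called higher in adult muscle of TPM3(E151G) against TPM3(WT), and none lower, beside the 17.4% and 25.5% of all genes. Their median was 0.56, smaller than the shift of -0.77 that equal column sums give in this comparison, and the muscle and neuron lists had medians of 0.67 and 0.78. The insulin receptor substrate genes irs2b and irs2a went from 4.22 to 21.8 and from 3.73 to 11.2. The transcription factor foxo1a, which insulin signalling keeps out of the nucleus, went from 4.92 to 15.9. In TPM3(E151A) 1 of 18 was called higher, foxo1a at 12.4, and none lower, beside 9.90% and 19.2% of all genes. No insulin signalling gene was called in either mutant's embryos against TPM3(WT).

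The genes whose levels ran most like those of an islet gene were found by Pearson correlation of log2(FPKM + 1) over the 7 conditions, among 14564 or 14565 genes that reached an FPKM of 5 somewhere. The value is a description only, over conditions that differ mostly between adult and embryo. For ins the nearest were srrd (r = 0.99) and psmd5 (r = 0.98), and for gcga they were the carnitine transporter family gene slc22a16 (r = 0.99) and the sterol enzyme gene msmo1 (r = 0.99). For sst2 the nearest named gene was st6galnac5b (r = 0.89), and for the chromosome 19 scg5 gene it was cant1b (r = 0.86). For the chromosome 20 gene it was cib2 (r = 0.98). Many genes ran with pcsk2, whose 5 nearest, led by dopey1 and myom1b, all had r of 1.00 after rounding, and this gene differed mainly between adult and embryo.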

How the data were processed

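RNA was sequenced on an Illumina instrument, and the authors used Trimmomatic 0.36 for trimming and HISAT2 for alignment to GRCz11; the submitters' processing notes also name featureCounts 1.6.3, without saying what it made, and no source used here names the tool that made FPKM. The deposited tables, 1 for each of 7 comparisons, hold 1 FPKM per gene and condition, in which the authors had already combined the adult libraries of a genotype. Their ratio, p-value, q-value and called-gene columns hold the study's own findings and were not used.

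From the deposited FPKM, log2 ratios of FPKM + 1 were computed in Python 3.11.15 with numpy 2.4.6 and pandas 2.3.3. Genes with an FPKM of 1 or more in either condition were compared, 2-fold was the limit for a call, and values of 1e-05 or below count as listed at 0. All 10 islet genes had identical values wherever a condition recurred in several tables. The calculation was tested on simulated data. Gene names and GRCz11 loci are those of the tables. No sequence is shown.

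The islet genes and the 12 lists of other genes were chosen with earlier results of these data known. All islet genes are named. From each list the text names up to 4 called genes with the largest ratio in a comparison, and genes whose level is set against an islet gene; rfx6, pax4, neurod1, isl1, insm1a, insb, dmrt1, amh and zp3b were chosen after their values were seen. For likeness, the 5 genes with the highest r were taken. Alternatives were 3 other scalings, a pseudocount of 0.1, fold limits of 1.5 and 3, no FPKM minimum and one of 5, and the scg5 rows summed.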

Additional observations from a re-analysis of the deposited data

How the results depend on the processing

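No paired analysis was possible because the files give 1 combined FPKM per adult genotype and 1 library per embryo condition; leaving out each replicate was not run for the same reason. Of 126 recomputed counts 92 stayed within 1.5 times their value and 34 did not. Of 196 recomputed ratios of single genes 23 moved across the 2-fold limit. These were 9 with a pseudocount of 0.1, 7 with equal FPKM sums, 5 with such sums without the mitochondrial genome and 2 with median-of-ratios scaling. Of the same 196 ratios 10 changed sign, each with a main ratio of 0.34 or less in size, while no called ratio did. Those of sst1.1 between the adult mutants and of sst1.1 in TPM3(E151A) embryos against TPM3(WT), for example, were 0.28 and 0.03, and -0.42 and -0.15 with equal FPKM sums. The counts are small, and the cause of a moved count was not tested beyond the setting itself. In adult TPM3(E151A) against TPM3(WT), the 2 higher islet genes became 4 with a pseudocount of 0.1, 5 at a fold limit of 1.5, and 0 at a limit of 3 or an FPKM minimum of 5; the 1 lower became 0 at a limit of 3. In adult TPM3(E151G) against TPM3(WT), the 3 higher became 1 with equal FPKM sums or an FPKM minimum of 5, and 0 at a limit of 3. Between the adult mutants, the 1 higher became 0 with equal FPKM sums (with or without the mitochondrial genome), a limit of 3, an FPKM minimum of 5 or the scg5 rows summed, and 2 at a limit of 1.5; the 0 lower became 2 with median-of-ratios scaling, and 3 with equal sums of either kind, a pseudocount of 0.1 or a limit of 1.5. In TPM3(E151A) embryos against TPM3(WT), the 4 higher became 2 at a limit of 3 and 1 with an FPKM minimum of 5. In TPM3(E151G) embryos against TPM3(WT), the 0 higher became 1 with a pseudocount of 0.1 and 2 at a limit of 1.5, where the 0 lower became 1. With L-carnitine against TPM3(E151G), the 1 higher became 2 with equal sums of either kind, a pseudocount of 0.1 or a limit of 1.5, and 0 with an FPKM minimum of 5 or the scg5 rows summed; the 0 lower became 1 with a pseudocount of 0.1 and 2 at a limit of 1.5. With L-carnitine against TPM3(WT), the 1 higher became 0 with an FPKM minimum of 5 or the scg5 rows summed. The summed scg5 rows were an alternative chosen after seeing the data. Depth is unknown, so how far counting error alone could move genes near an FPKM of 1 was not assessed.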
